A study of Mus musculus with 4 samples.

Results

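ATP-binding cassette (ABC) transporters and lipid flippases were described in natural killer (NK) cells sorted from mouse liver. The genes were taken by symbol: the ABC subfamilies A to G with a number, and the P4-type ATPase genes of the ATP8, ATP9, ATP10 and ATP11 classes. This gave 64 genes of 21025 in the tables, 50 ABC genes and 14 flippase genes. All cells came from C57BL/6 mice, with no genetic change or treatment given in the labels, and were sorted as NK1.1+ and NKp46+ without T-cell receptor beta. TRAIL+ cells (2 libraries) displayed TRAIL, a death ligand, and no CD49b, and CD49b+ cells (2 libraries) displayed CD49b and no TRAIL. The age of the mice, and whether replicates came from separate mice, are not given in the labels, so the spread behind each p-value is that of the libraries and could be technical.

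ABC proteins use ATP to move lipids, peptides, drugs and conjugated metabolites across membranes, mostly outward or into organelles. Flippases are P-type ATPases that move phospholipids from the outer to the inner leaflet of a membrane and so keep phosphatidylserine away from the cell surface. Most flippases need a CDC50 subunit, encoded by the Tmem30 genes, to leave the endoplasmic reticulum. In liver, ABC genes are best known in hepatocytes, where they secrete bile salts, phospholipid, sterol and conjugates into bile.

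The P-glycoproteins of the mouse, the drug exporters that a single gene encodes in humans, are the products of Abcb1a and Abcb1b, and Abcb1b was lower in TRAIL+ cells while Abcb1a was not. Their first 120 coding bases, from GENCODE vM21 transcripts on GRCm38, are shown because reads of such close copies can be shared. Capitals mark bases that differ between them.
Abcb1a: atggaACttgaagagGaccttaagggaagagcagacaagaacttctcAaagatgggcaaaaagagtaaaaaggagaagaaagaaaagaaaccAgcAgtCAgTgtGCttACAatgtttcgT
Abcb1b: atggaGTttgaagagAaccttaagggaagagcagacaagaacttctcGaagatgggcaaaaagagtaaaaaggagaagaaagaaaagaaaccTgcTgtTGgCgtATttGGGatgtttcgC
In this stretch 15 of 120 bases differed, and over the whole coding sequence 88.2% of 3819 aligned bases were the same. Of the 36-base windows of the Abcb1b transcript, 22.8% were also found in the Abcb1a transcript, and of the 50-base windows 18.0%. The related genes Abcg2 and Abcg3 were the same at 70.7% of 1925 aligned coding bases and shared 0 of 3000 such 36-base windows.

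Promoter windows are shown for the ABC genes with the largest rises, Abcb9 and Abca3, and for the Abcb1 pair. They come from RefSeq on GRCm38.p6, a later build than the mm9 of the files, and run from 250 bases before to 50 bases after the gene start, 5′ to 3′ on the strand of the gene. Capitals mark matches to any of 5 motifs searched on both strands: AGGTGT (T-box factors such as Eomes and T-bet), CAGGTG (ZEB factors), GCGTG (the aryl hydrocarbon receptor), and TTACGTAA and TTATGTAA (Nfil3). AGGTGT and CAGGTG overlap where the letters run CAGGTGT.
Abcb9 promoter (chr5:124095749-124096048, minus strand): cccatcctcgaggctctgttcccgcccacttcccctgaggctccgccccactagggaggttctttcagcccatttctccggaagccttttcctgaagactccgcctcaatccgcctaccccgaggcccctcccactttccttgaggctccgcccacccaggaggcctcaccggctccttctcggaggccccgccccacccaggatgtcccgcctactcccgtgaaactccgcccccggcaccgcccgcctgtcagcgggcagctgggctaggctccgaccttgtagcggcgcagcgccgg
Abca3 promoter (chr17:24351773-24352072, plus strand): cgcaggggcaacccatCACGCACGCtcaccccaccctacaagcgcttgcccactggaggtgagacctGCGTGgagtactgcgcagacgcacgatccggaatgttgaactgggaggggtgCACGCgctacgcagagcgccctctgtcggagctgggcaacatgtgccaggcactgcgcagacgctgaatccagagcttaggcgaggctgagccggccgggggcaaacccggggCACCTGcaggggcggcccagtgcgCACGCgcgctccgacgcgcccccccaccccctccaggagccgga
Abcb1a promoter (chr5:8566841-8567140, plus strand): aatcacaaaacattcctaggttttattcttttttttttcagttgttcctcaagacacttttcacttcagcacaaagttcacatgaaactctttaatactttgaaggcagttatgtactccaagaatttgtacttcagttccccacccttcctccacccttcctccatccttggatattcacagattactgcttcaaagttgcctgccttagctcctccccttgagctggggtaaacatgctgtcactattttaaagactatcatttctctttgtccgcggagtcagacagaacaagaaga
Abcb1b promoter (chr5:8797897-8798196, plus strand): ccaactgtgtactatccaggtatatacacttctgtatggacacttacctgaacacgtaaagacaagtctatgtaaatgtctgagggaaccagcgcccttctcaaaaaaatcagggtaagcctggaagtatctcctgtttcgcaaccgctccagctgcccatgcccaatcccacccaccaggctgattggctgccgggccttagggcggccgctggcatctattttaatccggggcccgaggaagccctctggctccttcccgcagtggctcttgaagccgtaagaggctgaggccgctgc
Abca3 held 5 matches to GCGTG and 1 to CAGGTG, and the other 3 windows held 0 matches to any of the 5. The Abcb1a window had a G and C content of 40.3% and 2 CpG pairs, against 55% and 12 in Abcb1b, 68.7% and 23 in Abcb9 and 69.7% and 29 in Abca3. RefSeq windows were matched for 46 of the 64 genes, 57 windows in all. Of these, 7 held AGGTGT, 20 CAGGTG, 22 GCGTG and 0 either Nfil3 motif, that is 12.3%, 35.1%, 38.6% and 0%. The shares over all 32851 windows were 13.7%, 20.2% and 32.4% for the first 3 motifs, 0.119% for TTACGTAA and 0.938% for TTATGTAA. A match is only a run of letters.

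The libraries rested on 4071617 and 3786497 reads in TRAIL+ cells and 4232967 and 3933014 reads in CD49b+ cells, worked out from the steps of the deposited values. Values are RPKM, reads scaled by the length of the gene and the size of the library, so that levels can be set side by side between genes. In a gene of 5000 bases, 1 RPKM stood for 18.9 to 21.2 reads. The sort was checked on Tnfsf10 (TRAIL), at 208 and 189 RPKM in TRAIL+ against 7.26 and 6.94 in CD49b+ cells, and on Itga2 (CD49b), at 5.26 and 1.55 RPKM in TRAIL+ against 52.1 and 37.0 RPKM in CD49b+ cells. NK receptor genes were high in every library, with Ncr1 at 978 to 1114 RPKM. Replicate 2 read lower than replicate 1 in long genes, and the genes described here are long. Among the longest of 4 equal groups of tested genes, from 4199 bases up, the median log2 difference of replicate 2 minus replicate 1 was -0.36 in TRAIL+ and -0.12 in CD49b+ cells, and among the 36 ABC and flippase genes tested -0.25 and -0.11. The myeloid gene Lyz2 also followed the replicates: it read 81.9 and 9.21 RPKM in the TRAIL+ libraries, against 122 and 8.87 RPKM in the CD49b+ ones.

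TRAIL+ cells were set apart by high Atp8a2, a flippase, and by high Abcb9, a lysosomal peptide transporter, both low in CD49b+ cells. They were also higher in the lipid transporter gene Abca3 and in Abcg3, and lower in the exporter genes Abcg2, Abcb1b and Abcc4 and the flippase gene Atp11b. Of the 64 genes, 36 reached 1 RPKM in at least 2 libraries and were tested, 9 were read at lower levels and 19 had 0 reads in all 4 libraries. Of the 36, limma on log2(RPKM + 1) called 4 higher and 5 lower in the TRAIL+ subset, at an adjusted p below 0.05 over all 10047 genes tested, and 27 did not pass. Over all genes tested 8.62% were called, 4.76% higher and 3.86% lower. Atp8a2, Abca3 and Atp9a entered the test only through TRAIL+ levels and Abcb1b only through CD49b+ levels, so such genes had to differ and the share called is no support. Values of TRAIL+ and CD49b+ libraries did not overlap in 24 of the 36, against 46.8% of all genes tested. Errors after ± are SD over 2 libraries for RPKM means and SE for log2 fold changes. The median log2 fold change, TRAIL+ over CD49b+, was -0.15 over the 36 genes and 0.00 over all genes. Single-gene permutation tests were not used, since 2 against 2 libraries cannot give an exact p below 0.333. In bulk RNA, fewer cells that express a gene and less of its RNA per cell cannot be told apart.

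The calls did not rest equally on the libraries. The filter over all 4 libraries was kept when 1 was left out. For Atp8a2 and Abca3, which entered the test only through TRAIL+ levels, passing again is therefore no support. Atp8a2, Abcb9, Abca3 and Abcg2 passed with any single library left out. Abcg3 and Atp11b lost their calls without either CD49b+ library, Abcb1b without CD49b+ replicate 1, and Abcc4 without TRAIL+ replicate 2 or either CD49b+ library. The number called lower was 8 without TRAIL+ replicate 1, 4 without TRAIL+ replicate 2, 1 without CD49b+ replicate 1 and 2 without CD49b+ replicate 2. The number called higher was 4, 5, 3 and 3 in the same order.

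Marker genes of other cell types differed in part between the subsets. T-cell genes summed to 73.4 and 134 RPKM in TRAIL+ and 17.9 and 15.0 RPKM in CD49b+ cells. All 5 tested of 9 were higher in TRAIL+ cells, led by Cd3d and Cd3e, against 4.76% of all genes tested. Cd4 and Cd8a entered the test only through TRAIL+ levels, so this share is no support. The other 4 of the 9, Cd5, Cd6, Cd8b1 and Themis, were below the filter. Cd8b1 stood at 0 and 1 reads in TRAIL+ and 7 and 1 reads in CD49b+ cells. Kupffer cell and monocyte genes summed to 106 and 26.6 RPKM in TRAIL+ and 141 and 16.0 RPKM in CD49b+ cells (Lyz2 and Cd68 led, Marco was at 0). Of the 7 tested, log2 fold changes were positive in 5 and negative in 2, and 0 passed. C1qa stood at 5.21 and 4.38 RPKM in TRAIL+ against 1.31 and 0 RPKM in CD49b+ cells (limma adjusted p = 0.0549). Cd5l and, below the filter, Clec4f were also higher in both TRAIL+ libraries, and Cd68 was lower in both. Neutrophil genes summed to 25.8 and 4.99 RPKM in TRAIL+ against 28.8 and 0.644 RPKM in CD49b+ cells (S100a9 and Retnlg led). B-cell genes, led by Cd79b and Cd79a, summed to 22.1 and 15.7 RPKM in TRAIL+ against 23.3 and 12.3 RPKM in CD49b+ cells. Dendritic genes, led by H2-Aa and Xcr1, summed to 64.6 and 32.0 RPKM in TRAIL+ against 55.2 and 16.4 RPKM in CD49b+ cells. Xcr1 was called higher, at 2.98 and 3.20 RPKM in TRAIL+ against 0.106 and 0.0571 RPKM in CD49b+ cells (limma adjusted p = 0.00718). It entered the test only through TRAIL+ levels. H2-Aa did not pass, and Zbtb46, below the filter, was lower in both TRAIL+ libraries. Endothelial and stellate genes summed to 53.0 and 43.3 RPKM in TRAIL+ against 43.9 and 41.4 RPKM in CD49b+ cells, nearly all of it Pecam1, and Dcn and Lyve1 were at 0. Erythroid and platelet genes, led by Alas2 and Pf4, summed to 10.1 and 2.20 RPKM in TRAIL+ against 8.66 and 0.584 RPKM in CD49b+ cells, and mast cell and basophil genes, led by Kit and Cpa3, to 7.47 and 10.7 RPKM in TRAIL+ against 13.0 and 13.7 RPKM in CD49b+ cells. Which cells these transcripts came from, the sorted cells included, and their part in the ABC and flippase differences were not tested.

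**Figure D1:**
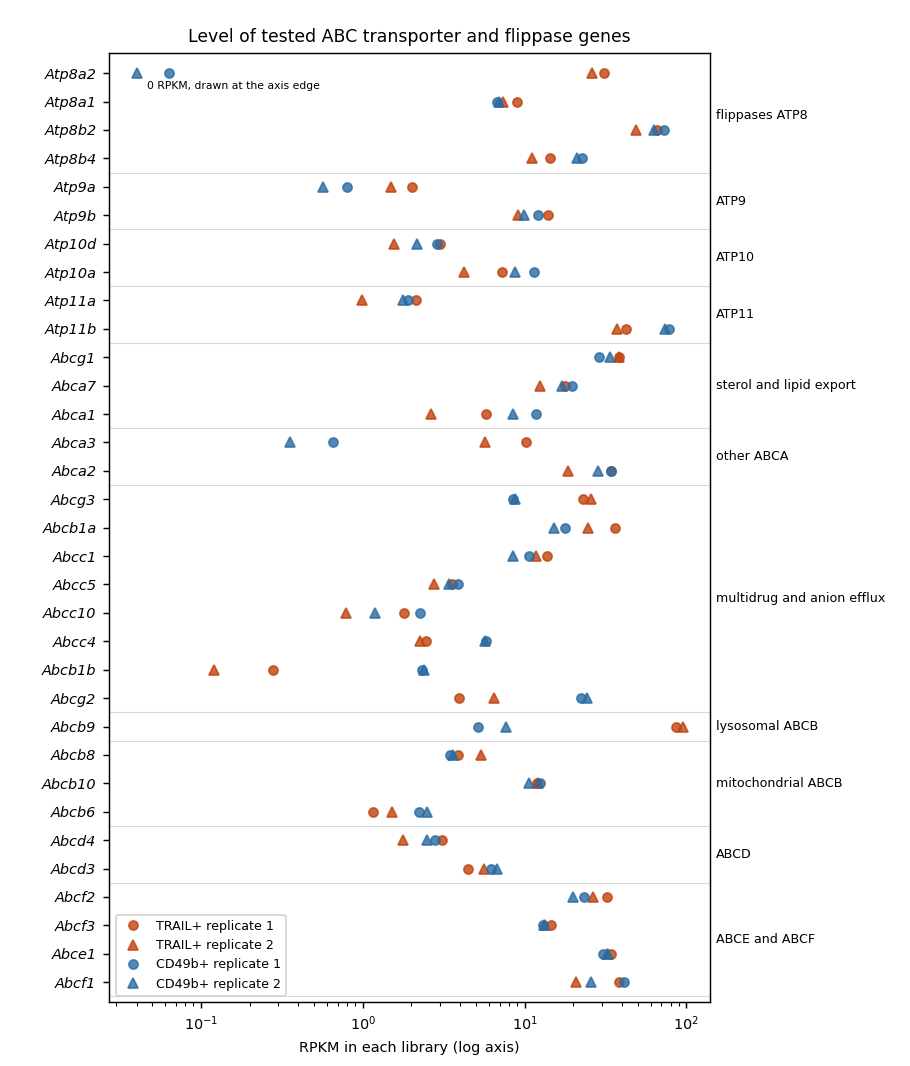
RPKM of 33 of the tested genes on a log axis, 1 row a gene, grouped by role. Circles are replicate 1 and triangles replicate 2 of TRAIL+ (red) and CD49b+ (blue) cells, and the 0 of Atp8a2 in CD49b+ replicate 2 is drawn at the axis edge. Atp8a2, Abcb9, Abca3, Abcb1b and Abcg2 show the widest gaps between the subsets.

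Among the flippases, Atp8a2 marked TRAIL+ cells. Atp8a2 moves phosphatidylserine and phosphatidylethanolamine inward and is best known from neurons and photoreceptors. It stood at 31.0 and 26.0 RPKM in the TRAIL+ libraries, against 0.0635 and 0 in the CD49b+ libraries. Both TRAIL+ libraries were high and CD49b+ replicate 2 had no read. The reads were 469 and 366 in TRAIL+ and 1 and 0 in CD49b+ cells, with the shortest gene length that gives whole reads. Their ratio was 868 with an exact binomial 95% interval of 155 to 34313, which covers counting error only. The ratio of mean RPKM was 897, and 448 without CD49b+ replicate 2. The log2 fold change was 4.83 ± 0.21 (SE, limma adjusted p = 0.000561). The annotated exons of Atp8a2 share 241 bases with Nupl1 on the same strand, a gene at 20.7 and 14.9 RPKM in TRAIL+ libraries, against 20.0 and 17.7 RPKM in CD49b+ libraries. Atp8a2 also shares 2073 exon bases with the opposite-strand gene Gm19716, and without strand in the counting these cannot be told apart.

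Atp11b went the other way. It encodes a flippase of endosomes, and stood at 42.4 and 37.3 RPKM in TRAIL+ and at 78.6 and 73.3 RPKM in CD49b+ cells. The groups were well apart and the replicates close. Atp11b fell by 0.92 on the log2 scale (SE 0.16, limma adjusted p = 0.0257), with adjusted p = 0.331 and 0.238 without CD49b+ replicates 1 and 2. Atp11a stood at 1.56 ± 0.811 RPKM in TRAIL+ and 1.83 ± 0.0902 RPKM in CD49b+ cells (SD, n = 2 each).

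Atp8b2, a phosphatidylcholine flippase in humans, was the most abundant flippase gene of TRAIL+ cells, at 65.5 and 48.6 RPKM, against 72.7 and 63.3 RPKM in CD49b+ cells, and the groups overlapped. Atp8b4 read 14.3 and 11.1 RPKM in TRAIL+ libraries, against 22.7 and 21.1 RPKM in CD49b+ libraries, lower in both TRAIL+ libraries. Its log2 fold change was -0.75 ± 0.20 (limma adjusted p = 0.0857), and it passed without TRAIL+ replicate 1 (adjusted p = 0.0216) and after a gene length correction, added once the data had been seen (0.0267). Without CD49b+ replicates 1 and 2 its adjusted p was 0.630 and 0.470. Atp8a1, the closest relative of Atp8a2, stood at 8.13 ± 1.13 RPKM in TRAIL+ libraries, against 6.86 ± 0.106 RPKM in CD49b+ libraries, with a log2 fold change of 0.21 and a 95% interval of -0.29 to 0.71. The Atp8a1 and Atp8a2 transcripts shared 0 of 8143 windows of 36 bases. Atp8b1 and Atp8b3 had 0 reads.

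The ATP9 and ATP10 classes held no called gene. Atp9a, at 2.00 and 1.48 RPKM in TRAIL+ against 0.797 and 0.572 in CD49b+ cells, was 2.55-fold higher by group means and did not pass (log2 fold change 0.70 ± 0.25, limma adjusted p = 0.189). Atp9b, which like Atp9a works without a CDC50 subunit, stood at 11.47 ± 3.42 RPKM in TRAIL+ and 10.97 ± 1.51 RPKM in CD49b+ cells. Atp10a, also a phosphatidylcholine flippase in humans, read 7.20 and 4.23 RPKM in TRAIL+ against 11.4 and 8.75 RPKM in CD49b+ cells. The TRAIL+ values of Atp10a lay below both CD49b+ values, but the log2 fold change of -0.75 ± 0.29 did not pass (limma adjusted p = 0.234). Without TRAIL+ replicate 1 Atp10a passed (0.0338), while without TRAIL+ replicate 2 its log2 fold change was -0.42 (limma adjusted p = 0.393) and without CD49b+ replicate 1 its adjusted p was 0.933. Atp10d stood at 2.99 and 1.57 RPKM in TRAIL+ against 2.88 and 2.18 RPKM in CD49b+ cells, and Atp10b had 0 reads.

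**Figure D2:**
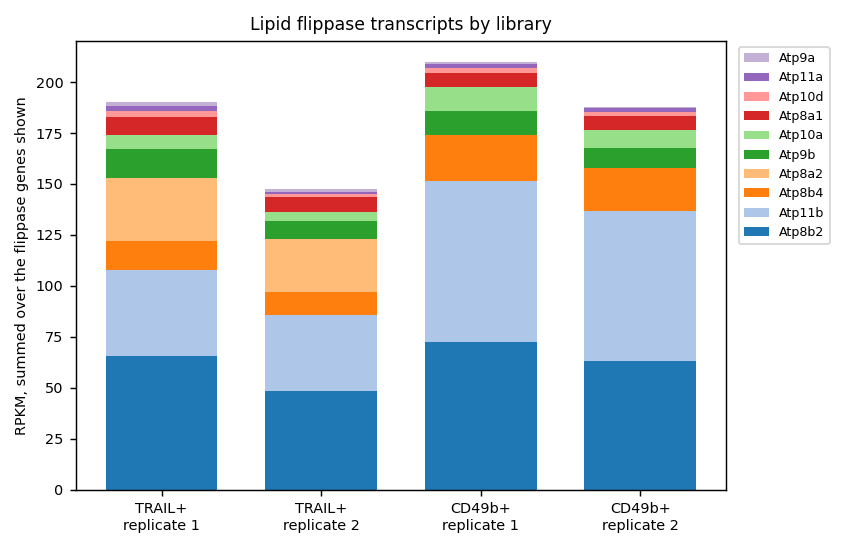
RPKM of 10 flippase genes stacked for each library, TRAIL+ at the left, with 1 colour a gene. The light orange block of Atp8a2, at 31.0 and 26.0 RPKM in TRAIL+ libraries, is too small to see in the CD49b+ bars.

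The make-up of the family differed more than its sum. Atp8a2 took 15.7% and 16.9% of the flippase RPKM in TRAIL+ cells, against 0.0289% and 0% in CD49b+ cells. Atp11b took 21.5% and 24.3% in TRAIL+ against 35.7% and 37.1% in CD49b+ cells. The share of Atp8b2 lay between 31.7% and 33.2% in all 4 libraries. The summed level was 197 and 153 RPKM in TRAIL+ against 220 and 198 RPKM in CD49b+ cells, lower in both TRAIL+ libraries, though by a margin smaller than 1 RPKM between the nearest of them.

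The partner of the flippases was present in both subsets. Tmem30a, which encodes the CDC50A subunit, stood at 159 ± 9.89 RPKM in TRAIL+ and 133 ± 10.1 RPKM in CD49b+ cells, with a log2 fold change of 0.26 ± 0.16 that did not pass (limma adjusted p = 0.501). Tmem30b had 1 read, in TRAIL+ replicate 1, and Tmem30c had 0. Scramblases let lipids cross between leaflets in either direction. Of 12 tested genes of scramblases and their partners, 0 were higher, 1 was lower and 11 did not pass, with a median log2 fold change of -0.28. The share called was 8.33%, near the 8.62% of all genes tested. The lower gene was Plscr4, of the phospholipid scramblase family, at 5.52 ± 0.267 RPKM in TRAIL+ and 21.3 ± 2.45 RPKM in CD49b+ cells (log2 fold change -1.77 ± 0.19, limma adjusted p = 0.00499). Bsg, a chaperone of Xkr8-type scramblases and the gene of the list with the highest mean over all 4 libraries, stood at 124 ± 35.0 RPKM in TRAIL+ and 148 ± 11.04 RPKM in CD49b+ cells.

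Of the 64 genes, Abcb9 had the highest level in TRAIL+ cells. Abcb9 (TAPL) carries peptides from the cytosol into lysosomes and is related to the TAP transporter of antigen presentation. It stood at 86.3 and 94.6 RPKM in TRAIL+ libraries, against 5.15 and 7.67 in CD49b+ libraries. The level was 14.1-fold higher in TRAIL+ cells, and 18.4% and 23.0% of the RPKM summed over the 50 genes with ABC symbols, which leave out Tap1 and Tap2, came from Abcb9 there, against 1.37% and 2.21% in CD49b+ cells. The log2 fold change was 3.64 ± 0.22 (limma adjusted p = 0.000916). It rested on 1176 and 1198 reads in TRAIL+ and on 73 and 101 in CD49b+ cells. Abcb9 shares 162 exon bases with an opposite-strand gene, Gm34086. Its relatives Tap1 and Tap2, which act in antigen presentation, stood at 132 ± 5.81 and 183 ± 1.65 RPKM in TRAIL+ and 116 ± 6.24 and 139 ± 1.43 RPKM in CD49b+ cells. Neither passed. Of the 4 tested genes of the list that holds Tap1 and Tap2, 0 passed. Tapbp (tapasin) was the most abundant, at 337 ± 17.0 RPKM in TRAIL+ and 236 ± 4.36 RPKM in CD49b+ cells.

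**Figure D3:**
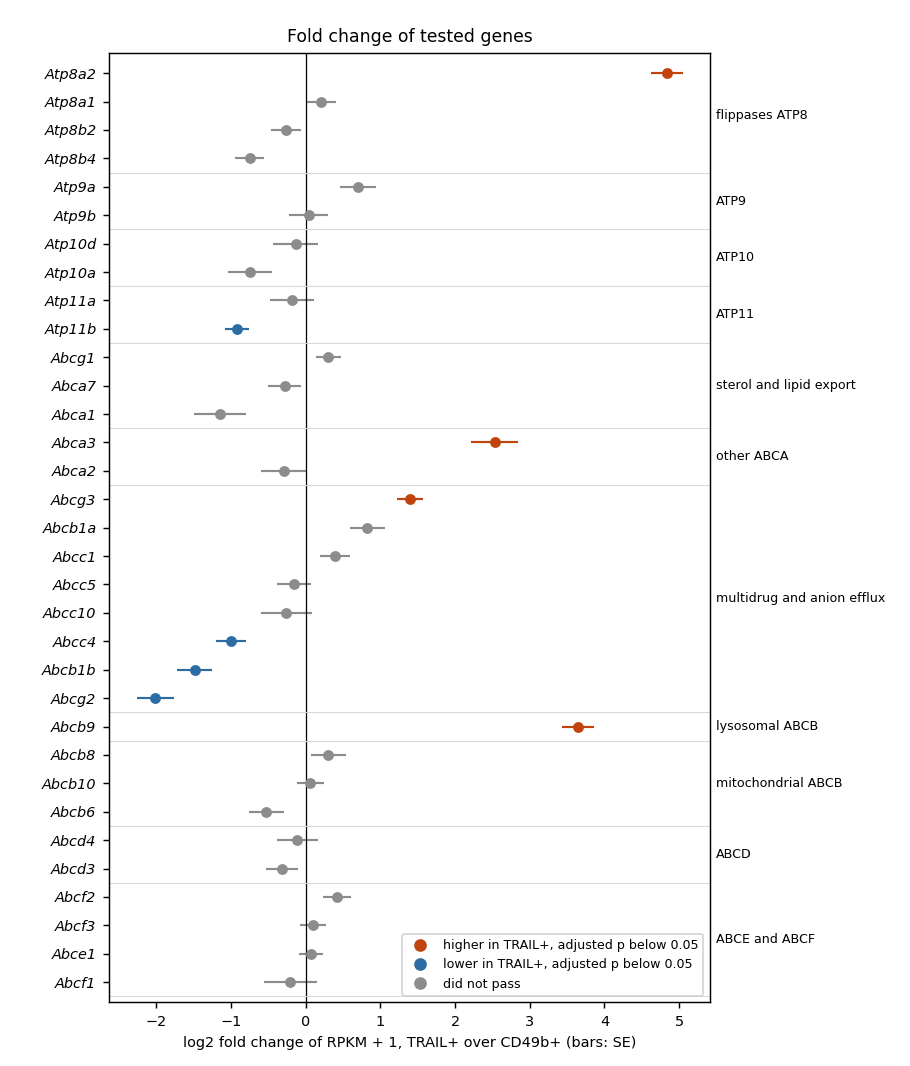
Log2 fold change of RPKM + 1, TRAIL+ over CD49b+, for the same 33 genes in the same order, with SE bars. Red genes were higher and blue genes lower in TRAIL+ cells at an adjusted p below 0.05, and grey genes did not pass. Atp8a2 (4.83) and Abcb9 (3.64) lie farthest to the right and Abcg2 (-2.01) farthest to the left.

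Abca3 followed among the rises. It encodes the lipid pump that fills the lamellar bodies of lung type II cells with surfactant phospholipid. It stood at 10.2 and 5.66 RPKM in TRAIL+ and at 0.656 and 0.353 RPKM in CD49b+ cells. Replicate 2 was the lower library in both subsets, and the groups did not overlap. The level was 15.7-fold higher in TRAIL+ cells, and by 2.53 ± 0.32 in log2 (limma adjusted p = 0.00877), on 408 reads in TRAIL+ and 27 reads in CD49b+ cells. Abca3 shares 914 exon bases with the opposite-strand gene D330041H03Rik. Abca2, a lipid transporter of late endosomes and the other tested gene of the remaining A subfamily, stood at 34.0 and 18.7 RPKM in TRAIL+ against 34.1 and 28.5 RPKM in CD49b+ cells and did not pass (log2 fold change -0.29 ± 0.30, limma adjusted p = 0.724).

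The cholesterol exporters did not pass. Abca1 loads cholesterol and phospholipid onto lipid-poor apolipoprotein A-I, and Abcg1 passes cholesterol on to mature lipoprotein particles. Abca1 stood at 5.76 and 2.64 RPKM in TRAIL+ and 11.7 and 8.51 RPKM in CD49b+ cells. Both TRAIL+ values lay below both CD49b+ values and replicate 2 was the lower in each pair. The log2 fold change was -1.15 ± 0.35 (limma adjusted p = 0.137). Without TRAIL+ replicate 1 it passed (adjusted p = 0.00937), as it did after the gene length correction (0.0195). Without TRAIL+ replicate 2 the log2 fold change was -0.70 (limma adjusted p = 0.172), and without CD49b+ replicate 1 the adjusted p was 0.582. Abcg1 was far more abundant, at 38.5 and 38.4 RPKM in TRAIL+ against 28.6 and 33.5 RPKM in CD49b+ cells, and its change of 0.30 ± 0.16 in log2 did not pass (limma adjusted p = 0.413). The ratio of Abcg1 to Abca1 in a library was 6.68 and 14.6 in TRAIL+ and 2.44 and 3.93 in CD49b+ cells. Abca7, which exports phospholipid and acts in uptake of cell debris, stood at 15.1 ± 3.81 RPKM in TRAIL+ and 18.3 ± 1.71 RPKM in CD49b+ cells, and Abcg4 had 0 reads.

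Genes grouped as drug and organic anion exporters were 1 higher, 3 lower and 4 not passing among 8 tested. That is 50% called, against 8.62% of all genes tested. The group was chosen with earlier results of these data known, so this share is no support. Abcb1b also entered the test only through CD49b+ levels. The 1 higher gene was Abcg3, placed here as a relative of Abcg2. With Abcg3 counted, the summed level of the group was 84.9 and 75.04 RPKM in TRAIL+ against 73.7 and 69.8 RPKM in CD49b+ cells. Abcg3 took 27.0% and 34.5% of the sum in TRAIL+ and 11.6% and 12.5% in CD49b+ cells. The higher TRAIL+ sums rested on Abcg3. Abcg2 exports urate, porphyrins and drugs and is known from stem cells that retain little dye. Abcg2 stood at 3.92 and 6.43 RPKM in TRAIL+ and at 22.4 and 24.4 RPKM in CD49b+ cells. It was 4.53-fold lower in TRAIL+ cells, and its log2 difference was -2.01 ± 0.25 (limma adjusted p = 0.00845). Abcg3, a rodent relative of Abcg2, went the opposite way. It stood at 22.9 and 25.9 RPKM in TRAIL+ and 8.52 and 8.75 RPKM in CD49b+ cells, 2.83-fold higher (log2 fold change 1.397 ± 0.17, limma adjusted p = 0.00837). The call was lost without CD49b+ replicate 1 (0.0823) or 2 (0.0775). The ratio of Abcg3 to Abcg2 was 5.86 and 4.03 in the TRAIL+ libraries and 0.380 and 0.358 in the CD49b+ libraries, so the more abundant of the pair differed between the subsets.

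The P-glycoprotein genes diverged as well. Abcb1b stood at 0.281 and 0.121 RPKM in TRAIL+ and at 2.32 and 2.38 RPKM in CD49b+ cells. The TRAIL+ values rested on 5 and 2 reads, against 43 and 41 in CD49b+ cells. The ratio of reads, CD49b+ over TRAIL+, was 11.5 with an exact binomial 95% interval of 5.37 to 29.6. By group means Abcb1b was 11.7-fold lower in TRAIL+ cells, 19.5-fold without TRAIL+ replicate 1 and 8.38-fold without TRAIL+ replicate 2. Its log2 fold change was -1.49 ± 0.23 (limma adjusted p = 0.0175, and 0.0608 without CD49b+ replicate 1). Abcb1a, the P-glycoprotein gene of the blood-brain barrier in mice, stood at 36.1 and 24.8 RPKM in TRAIL+ and 17.7 and 15.2 RPKM in CD49b+ cells. Both TRAIL+ values were the higher, and the log2 difference of 0.83 ± 0.23 did not pass (limma adjusted p = 0.105). It passed without TRAIL+ replicate 2 (adjusted p = 0.0154) and after the gene length correction (0.0152), and had an adjusted p of 0.363 and 0.567 without CD49b+ replicates 1 and 2. Abcb1a was 128 and 205 times as abundant as Abcb1b in the TRAIL+ libraries and 7.64 and 6.39 times in the CD49b+ libraries. Put the other way, Abcb1b stood at 0.779% and 0.487% of Abcb1a in TRAIL+ and 13.1% and 15.6% in CD49b+ cells. How reads common to both were counted is not given in the sources used here, and their part in the low TRAIL+ values of Abcb1b was not tested. Abcb1a shares 553 exon bases with the opposite-strand gene Gm42686, and Abcb1b shares 143 with the opposite-strand gene Gm5106.

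**Figure D4:**
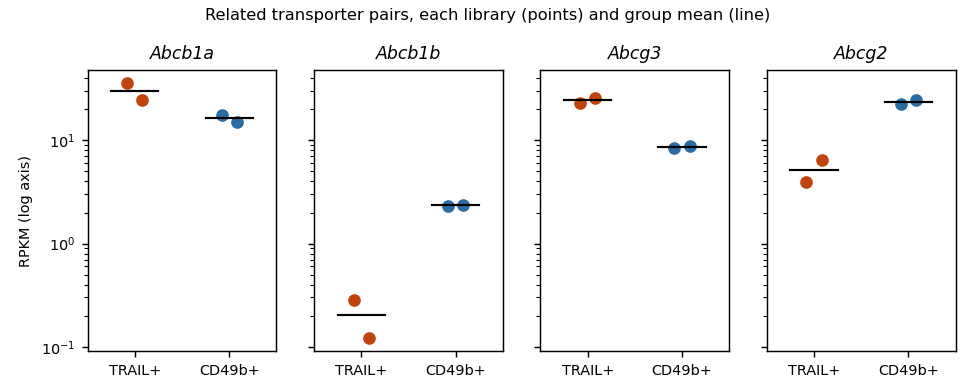
RPKM on a log axis of Abcb1a, Abcb1b, Abcg3 and Abcg2 in each library (points) with group means (lines), TRAIL+ left of CD49b+ in each panel. Abcb1a and Abcg3 are higher and Abcb1b and Abcg2 lower in TRAIL+ cells, and the difference in Abcb1a did not pass the test (adjusted p = 0.105).

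Abcc4 (MRP4) exports cyclic nucleotides and prostaglandins. It read 2.44 and 2.27 RPKM in TRAIL+ against 5.74 and 5.71 RPKM in CD49b+ cells, a level 2.43-fold lower with close replicates. Its log2 fold change was -1.002 ± 0.20 (limma adjusted p = 0.0424). The call was lost without TRAIL+ replicate 2 (0.0576), without CD49b+ replicates 1 (0.326) and 2 (0.285), with no filter on low values (0.083) and with a minimum of 5 RPKM (0.0559). Abcc1 (MRP1), which exports glutathione conjugates and leukotriene C4, was the most abundant of the C subfamily, at 13.8 and 11.8 RPKM in TRAIL+ against 10.6 and 8.49 RPKM in CD49b+ cells, and did not pass (log2 fold change 0.39 ± 0.20, limma adjusted p = 0.396). Abcc5 stood at 3.15 ± 0.561 RPKM in TRAIL+ and 3.63 ± 0.340 RPKM in CD49b+ cells and Abcc10 at 1.29 ± 0.719 RPKM in TRAIL+ and 1.73 ± 0.756 RPKM in CD49b+ cells.

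Abcd3, a transporter of peroxisomes, read 5.04 ± 0.837 RPKM in TRAIL+ and 6.49 ± 0.388 RPKM in CD49b+ cells, with a log2 fold change of -0.32 ± 0.21, and the cobalamin transporter gene of lysosomes, Abcd4, 2.43 ± 0.936 RPKM in TRAIL+ and 2.64 ± 0.203 RPKM in CD49b+ cells.

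Abcb6, Abcb8 and Abcb10, transporters of mitochondria, did not pass. Abcb10, which acts in heme synthesis, read 11.9 and 12.1 RPKM in TRAIL+ against 12.4 and 10.6 RPKM in CD49b+ cells (95% interval -0.40 to 0.52). Abcb8 read 4.63 ± 1.03 RPKM in TRAIL+ and 3.52 ± 0.124 RPKM in CD49b+ cells. Abcb6, a porphyrin transporter, read 1.16 and 1.52 RPKM in TRAIL+ against 2.24 and 2.50 RPKM in CD49b+ cells, lower in both TRAIL+ libraries, and its log2 difference of -0.53 ± 0.23 did not pass (limma adjusted p = 0.297). Its exons share 2932 bases with Gm29253 on the same strand.

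ABCE and ABCF proteins have no membrane domain and act on ribosomes, and none of the 4 genes passed. Abce1, the ribosome recycling factor, stood at 33.2 ± 1.44 RPKM in TRAIL+ and 31.6 ± 1.46 RPKM in CD49b+ cells, with a log2 fold change of 0.07 and a 95% interval of -0.32 to 0.46. Abcf1 read 38.1 and 20.8 RPKM in TRAIL+ and 41.2 and 25.9 RPKM in CD49b+ cells, so the replicates differed more than the subsets. Abcf2 stood at 29.3 ± 4.10 RPKM in TRAIL+ and 21.5 ± 2.38 RPKM in CD49b+ cells and Abcf3 at 14.0 ± 0.858 RPKM in TRAIL+ and 13.1 ± 0.103 RPKM in CD49b+ cells.

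**Figure D5:**
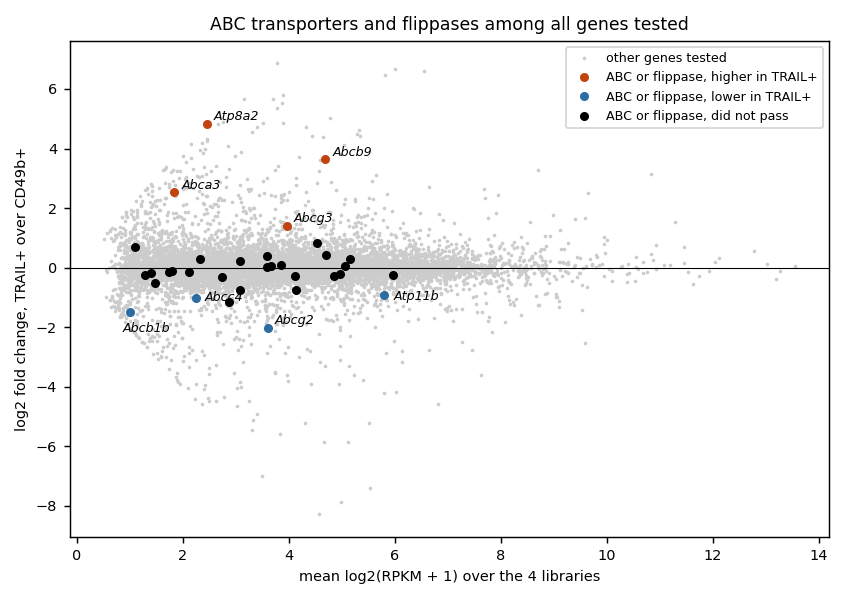
Log2 fold change, TRAIL+ over CD49b+, against mean log2(RPKM + 1) over the 4 libraries for all 10047 genes tested (grey) and 33 ABC and flippase genes (coloured or black). Atp8a2 and Abcb9 lie above most genes of their level, and the 25 black genes lie within -1.15 and 0.83.

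The ABC genes of bile formation were nearly unread. Abcb11 (bile salts), Abcg5 and Abcg8 (sterols) had 0 reads in all 4 libraries, and Abcb4 (phosphatidylcholine) had 1 read, in CD49b+ replicate 1. The conjugate exporter gene Abcc2 had 1 read, in TRAIL+ replicate 1, and Abcc6 had 0. For a gene of 5000 bases, 0 reads allow up to 0.0764 RPKM over the TRAIL+ and 0.0735 RPKM over the CD49b+ libraries. Of 5 tested hepatocyte genes, 1 was higher in TRAIL+ cells and 4 did not pass, and over all genes tested 4.76% were higher. Alb, which did not pass, stood at 12.65 and 1.92 RPKM in TRAIL+ and 14.8 and 0.865 RPKM in CD49b+ cells. The higher gene was Trf, the most abundant of that list. Trf stood at 83.1 and 96.9 RPKM in TRAIL+ against 21.2 and 22.1 RPKM in CD49b+ cells. Of the other genes below the test, Abca13 had 11 and 10 reads in TRAIL+ and 2 and 3 in CD49b+ cells, a ratio of 4.36 with an exact binomial 95% interval of 1.60 to 14.8. Abca5, Abca9 and Abcc3 had 11 reads each over the 4 libraries, and Abca4, Abca6 and Abcd2 had 1 to 6. The remaining genes with 0 reads were Abca8a, Abca8b, Abca12, Abca14 to Abca17, Abcb5, Abcc8, Abcc9 and Abcc12.

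Other genes of sterol handling moved in both directions, 3 higher and 2 lower among 18 tested (13 did not pass). That is 27.8% called, against 8.62% of all genes tested. The list was chosen with earlier results of these data known, so this share is no support. Srebf2, the regulator of sterol synthesis, read 68.5 ± 2.68 RPKM in TRAIL+ and 32.7 ± 1.51 RPKM in CD49b+ cells. Soat1, which esterifies cholesterol, was also higher (log2 fold change 1.15 ± 0.24). Npc1, which carries cholesterol out of lysosomes, was lower at 16.5 ± 2.11 RPKM in TRAIL+ against 39.97 ± 1.05 RPKM in CD49b+ cells, as was Arl4c, at 58.9 ± 3.15 RPKM in TRAIL+ against 191 ± 3.52 RPKM in CD49b+ cells. The oxysterol receptor gene Nr1h2 (LXR beta), whose targets include Abca1 and Abcg1, stood at 70.7 ± 1.39 RPKM in TRAIL+ and 76.9 ± 4.96 RPKM in CD49b+ cells and did not pass (limma adjusted p = 0.79), and Nr1h3 (LXR alpha) was under 1 RPKM in both subsets.

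Of 6 tested regulators of drug response 1 was called, 16.7% against 8.62% of all genes tested. Ahr was higher, at 13.5 ± 1.51 RPKM in TRAIL+ against 1.85 ± 0.00154 RPKM in CD49b+ cells, a log2 difference of 2.34 ± 0.20 (limma adjusted p = 0.00285). The other 5 did not pass, among them Nfe2l2, the most abundant, at 36.9 ± 0.509 RPKM in TRAIL+ and 30.6 ± 1.84 RPKM in CD49b+ cells. Among 6 tested genes of sphingosine 1-phosphate and leukotriene handling 0 passed, and Sgpl1, which breaks down sphingosine 1-phosphate, was the most abundant at 38.1 ± 0.082 RPKM in TRAIL+ and 58.5 ± 0.484 RPKM in CD49b+ cells. Of 13 tested genes of other P-type ATPases and their beta subunits 4 were lower and 0 higher in TRAIL+ cells, with a median log2 fold change of -0.50. Over all genes tested 3.86% were lower and 4.76% higher, with a median of 0.00. The lists of this paragraph were chosen with earlier results of these data known, so their counts are no support. Among the 4 lower genes were Atp1b1 and Atp1b3, beta subunits of the sodium pump, at 2.66-fold and 3.41-fold lower, and Atp13a2, a lysosomal polyamine exporter, at 4.10-fold lower. Atp2a3, a calcium pump of the endoplasmic reticulum, had the highest mean over all 4 libraries, at 241 ± 43.2 RPKM in TRAIL+ and 339 ± 35.9 RPKM in CD49b+ cells, and did not pass.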

How the data were processed

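Polyadenylated RNA of 4 libraries, 2 of TRAIL+ and 2 of CD49b+ liver NK cells, was sequenced by the study, and the authors deposited 1 RPKM value per gene and library. Reads were mapped with TopHat 1.4.1 to mm9, per the submitters' processing notes, and which tool made the RPKM values, with or without strand, is not given in the sources used here. Each gene's RPKM values were whole multiples of 1 read in 100% of the 13681 genes above 0 (relative tolerance 1e-06), which gave reads and depth. Of 10859 genes with 1 annotated record, 79.1% had a worked-out length within 10% of the annotated one. Reads summed over genes were above the depth in every library, at 4123737 against 4071617 in TRAIL+ replicate 1, so some lengths or reads may be off. Intervals and floors (3 reads) cover counting error only. Names were matched to RefSeq on GRCm38.p6, and Atp8b5, with no matched row, was not analysed here. A few genes of the groups and lists counted here are not reported by name.

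TRAIL+ was tested against CD49b+ with limma 3.58.1 (R 4.3.3) on log2(RPKM + 1), with a trended prior, for genes at 1 RPKM or more in at least 2 libraries, adjusted by Benjamini-Hochberg over all 10047. A fold change on this scale understates low genes, so ratios of group means are given beside it. The script was tested on simulated data. Alternatives were size factors, quantile normalization, pseudocounts of 0.1 and 0.5, no filter, a minimum of 5 RPKM, each library left out, a replicate block, no trended prior, voom on the recovered reads and, chosen after seeing the data, a gene length correction.

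The genes, lists and tests were chosen with earlier results of these data known. Those genes aside, the text names every ABC or flippase gene that passed, those most abundant or most changed in each role group, those with 10 or more reads below the filter, passing genes (up to 6) and the most abundant gene of each pathway list, and the 2 most abundant of each marker list; others were named after their values were seen.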

Additional observations from a re-analysis of the deposited data

How the results depend on the processing

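Scaling each library, quantile normalization, pseudocounts of 0.1 and 0.5 and voom kept the calls of all 36 genes. The ABC and flippase genes called lower were 5, against 3 with no filter, 3 with a minimum of 5 RPKM and 8 with a replicate block. The minimum of 5 RPKM left 27 of the 36 genes to test, and Abcb1b was not among them. Over all genes, 478 were higher and 388 lower, against 1049 and 833 with the block and 722 and 593 with the gene length correction. Leaving out 1 library gave 245 to 777 higher and 198 to 763 lower genes over all, and 3 to 5 higher and 1 to 8 lower ABC and flippase genes, with the lone library of a group assumed to vary like the other group; the cause was not tested. The replicate numbers are shared by the subsets, but the labels give no pairing: deviations of same-numbered libraries correlated at 0.56 over 2 pairs. The block added Abca1, Abcb1a, Atp10a and Atp8b4 to the calls.

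Among the genes reported by name, log2 fold changes of 8 changed sign in some setting, none of them called. With 1 library left out, values ran from -0.71 (without TRAIL+ replicate 1) to 0.12 (without TRAIL+ replicate 2) for Abca2, and between the same settings from -0.588 to 0.0633 for Abcc10, -0.397 to 0.17 for Abcd4, -0.63 to 0.21 for Abcf1, -0.45 to 0.19 for Atp10d and -0.51 to 0.15 for Atp11a. Abcc10, Abcf1 and Atp10d were also positive, at 0.02, 0.12 and 0.01, without CD49b+ replicate 1. Atp9b ran from -0.25 without TRAIL+ replicate 1 to 0.32 without TRAIL+ replicate 2, and was -0.09 without CD49b+ replicate 2, where Abcb10 was at its lowest, -0.0428, of a range up to 0.17. Abcb1b in TRAIL+ cells rested on 7 reads and is limited by depth.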
